A study of Bos taurus with 30 samples.

Results

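The miRNAs miR-182, miR-183 and miR-96 of the anterior pituitary were examined by name in the deposited table, as the rows bta-miR-182, bta-miR-183 and bta-miR-96, and these were 3 of the 1030 mature bovine miRNAs listed. Small RNA had been sequenced from this lobe of the gland, which makes its trophic hormones, in 30 Holstein-Friesian bull calves, with 1 library per calf. Calves of the HI group (n = 15) were given 1.5 kg of milk replacer in 10 litres per day with ad libitum concentrate, whereas calves of the MOD group (n = 15) were given 0.5 kg in 4 litres with 0.5 kg of concentrate. The diets ran from 2 to 12 weeks of age, when the tissue was taken. Each value below is a TMM-scaled CPM, a read count relative to all miRNA reads of the library and corrected for library composition, as deposited by the authors.

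The 3 miRNAs are processed from neighbouring hairpins of a shared primary transcript and are usually treated as 1 cluster. They are best known from sensory organs such as the retina and the inner ear, where changes in miR-96 cause hearing loss, and they are also abundant in endocrine tissue. The mRNAs of the FOXO transcription factors, which act downstream of insulin and IGF-1, are among their known targets. RefSeq, in its annotation of ARS-UCD2.0, lists them so that MIR182, MIR96 and MIR183 follow each other on chromosome 4 with no other gene listed between them. The protein-coding gene NRF1, a regulator of mitochondrial genes, is the next gene on the MIR182 side. On the MIR183 side the uncharacterised LOC132345191 comes first and then UBE2H, a ubiquitin-conjugating enzyme. Each member is listed as 1 mature product, so the opposite arms of the hairpins are not described.

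The libraries held 6650492 to 11086524 reads on miRNAs under HI and 7685030 to 9916490 under MOD, and the 3 reads that a count of 0 could hide would equal 0.266 to 0.419 CPM, counting error alone considered. Of the endocrine markers, miR-375 was present at 103334 to 197219 CPM and miR-7 at 11597 to 27593 CPM. Of the 5 miRNAs listed for striated muscle, miR-1 and miR-206 did not exceed 0.112 CPM in any library. The others were present, miR-133a at 5.15 to 77.3 CPM, miR-208b at 12.3 to 60.8 CPM and miR-499 at 28.6 to 51.9 CPM. In HI replicate 1 the 5 stromal miRNAs, led by miR-143, summed to 183329 CPM, against 32132 to 81769 CPM in the other 29 libraries. A set of 9 calves, those numbered highest in the labels (5 HI and 4 MOD), also stood apart from the other 21 (10 HI and 11 MOD). That boundary was drawn from miR-99b in an earlier examination of these data, what it stands for is not given in the sources used here, and results are therefore also given within the 9 and within the 21 libraries.

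Expression of miR-182 was far above that of the other members in every calf. Its level had a lowest value of 18692, a median of 24244 and a highest value of 32376 CPM in HI calves, and a lowest value of 19542, a median of 27602 and a highest value of 34960 CPM in MOD calves. It therefore ranked 11 among all 1030 miRNAs by mean CPM, and between 7 and 15 in single libraries. Its neighbours in that order were miR-191, at 28243 ± 2852 CPM (SD, n = 30), and miR-22-3p, at 25133 ± 4136 CPM (SD, n = 30). The mean of miR-182 over all calves was 26000 ± 4186 CPM (SD, n = 30), so these neighbours differed from it by less than the spread between calves.

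Expression of miR-183 ran from 1475 to 2996 CPM in HI calves with a median of 2124 CPM, and from 1745 to 2926 CPM in MOD calves with a median of 2247 CPM. By mean CPM it ranked 50, next to miR-98 and miR-532. Expression of miR-96 ran from 48.1 to 80.9 CPM in HI calves with a median of 66.2 CPM, and from 47.3 to 123 CPM in MOD calves with a median of 65.8 CPM. Its neighbours by mean CPM were miR-6123 and miR-3431. The ranges of the diets overlapped for each of the 3 miRNAs.

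**Figure D1:**
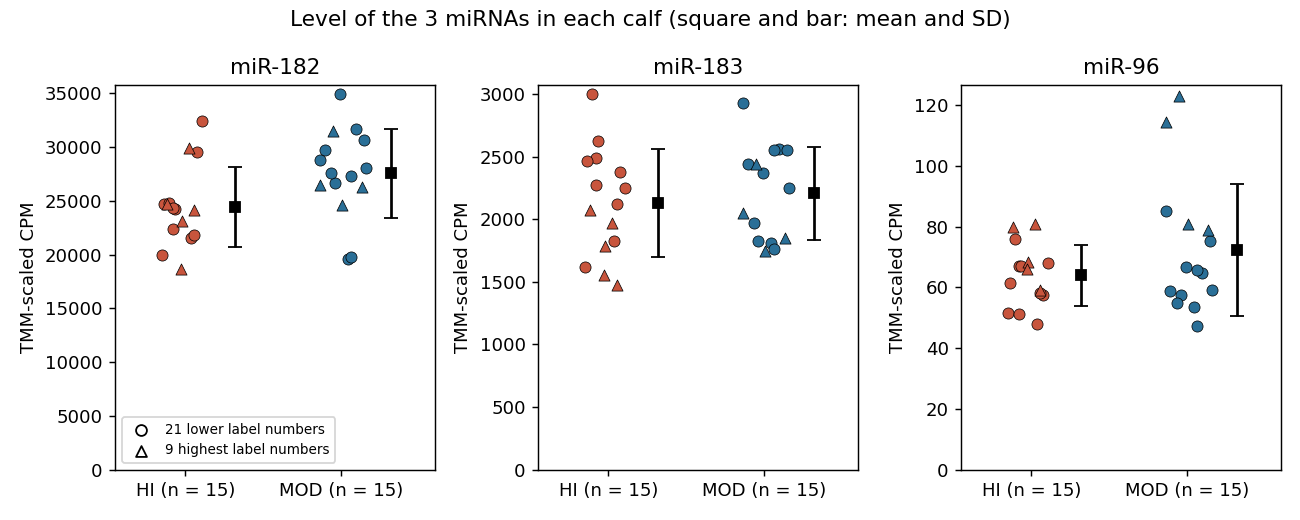
The TMM-scaled CPM of miR-182, miR-183 and miR-96 is plotted for each calf by diet, each panel with its own linear axis from 0, with triangles for the 9 highest label numbers, circles for the other 21, and a square with a bar for the mean and SD. HI and MOD points overlap in all 3 panels, and the highest miR-96 values, 123 and 114 CPM, are triangles of MOD calves.

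Together the 3 miRNAs took 2.16% to 3.47% of the reads of a library, and nearly all of these reads were miR-182. The share of miR-182 among the reads of the 3 was 92.0% ± 1.21 (SD, n = 30), that of miR-183 was 7.73% ± 1.21 (SD, n = 30) and that of miR-96 was 0.244% ± 0.0547 (SD, n = 30). There were thus 12.2 ± 1.97 reads of miR-182 for each read of miR-183, and 32.9 ± 7.30 reads of miR-183 for each read of miR-96 (SD, n = 30). The order miR-182, miR-183, miR-96 was the same in every library, since the lowest ratios in any calf were 8.28 and 17.9. The recovered reads of the 3 miRNAs were whole in 30 of the 30 libraries.

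The depth behind the 3 miRNAs differed with their levels. From 151719 to 299840 reads stood behind miR-182 in a library, from 13316 to 26705 behind miR-183 and from 363 to 1116 behind miR-96. Counting error alone would give a coefficient of variation of about 0.213% for miR-182, 0.740% for miR-183 and 4.21% for miR-96. The observed coefficients of variation over the 30 calves were 16.1%, 18.3% and 25.2%, so the spread between calves was many times the counting error for each. On the log2(CPM + 1) scale the SD within diets was 0.22 for miR-182, 0.27 for miR-183 and 0.32 for miR-96. The median was 0.20 over the 159 tested miRNAs with a mean above 100 CPM, to which miR-96, with its lower mean, does not belong. Among all 419 miRNAs tested these SD ranked 154, 243 and 294 from the lowest.

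The first comparison asked whether the plane of nutrition altered the level of the cluster. None of the 3 miRNAs passed FDR < 0.1, although the mean of each was lower in HI than in MOD calves. The diets were contrasted by limma, on log2(CPM + 1), over the 419 miRNAs that passed a filter on low counts, among which were all 3 members. In that fit 15 of the 419, or 3.58%, passed FDR < 0.1 (1.91% higher and 1.67% lower in HI calves), and 2, or 0.477%, also passed a fold change of 1.5. At an unadjusted p under 0.05 stood 1 of the 3 members (miR-182), beside 12.6% of all miRNAs tested, or 5.25% for those lower in HI calves, as miR-182 was. The same counts, 0 at FDR < 0.1 and 1 at an unadjusted p under 0.05, came from edgeR's quasi-likelihood test and from DESeq2 on the recovered reads. Over the 17 other settings tried the unadjusted p of miR-182 was under 0.05 in 9 and not in 8. Among the latter were total counts (p = 0.116) and the label number range as a block (log2 fold change -0.13, p = 0.119, FDR = 0.781, all from limma). These ranges were formed from the label numbers without their first digit, so they do not follow the order of the full numbers.

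In HI calves miR-182 had a mean level of 24421 ± 3716 CPM, against 27578 ± 4140 CPM under MOD (SD, n = 15 per diet). A total of 12 of the 15 HI calves lay below the MOD median and 3 lay above it. Its log2 fold change, taken on log2(CPM + 1), was -0.17 (standard error 0.08, 95% interval -0.33 to -0.01), with an unadjusted p of 0.0349 and FDR = 0.329 from limma. Permuting the diets over the calves (two-sided permutation test) gave p = 0.0404, or 0.121 after adjustment over the 3 miRNAs. Among the 21 libraries HI differed from MOD by -0.17 on the log2 scale (p = 0.123 in an exact permutation test), and among the 9 by -0.18 (p = 0.222 in an exact permutation test). With upper quartile normalization, which moved the median over the 419 miRNAs from 0.02 to -0.07, the log2 fold change of miR-182 was -0.27 and passed (limma, FDR = 0.0853). Under that normalization 29 of the 419 passed FDR < 0.1, against 15 on TMM-scaled CPM. Over the other settings tried the FDR of miR-182 ran up to 0.784 and its direction was the same.

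For miR-183 the mean level was 2127 ± 430 CPM under HI and 2208 ± 372 CPM under MOD (SD, n = 15 per diet), and 8 of the 15 HI calves lay below the MOD median. Its log2 fold change was -0.06 (standard error 0.10, 95% interval -0.26 to 0.13, FDR = 0.902 from limma). Among the 21 libraries the difference was 0.02 (p = 0.873 in an exact permutation test) and among the 9 it was -0.19 (p = 0.222 in an exact permutation test). The interval covers differences of either sign, and the sign itself turned on total counts, where the log2 fold change was 0.00074.

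For miR-96 the mean level was 64.0 ± 10.0 CPM under HI and 72.4 ± 21.7 CPM under MOD (SD, n = 15 per diet). The medians were nearly equal, and 3 MOD calves lay above the highest HI calf. Its log2 fold change was -0.14 (standard error 0.11, 95% interval -0.37 to 0.09, FDR = 0.721 from limma). The log2 difference was -0.04 within the 21 (exact permutation test, p = 0.661) and -0.46 within the 9 (exact permutation test, p = 0.0794). The difference between these 2 values was tested as an interaction of diet and set in limma, with a log2 estimate of -0.42 (standard error 0.18, unadjusted p = 0.0305, FDR = 0.786), and did not pass FDR < 0.1. Without MOD replicate 6, the calf at 123 CPM, the log2 fold change was -0.08 (limma, FDR = 0.873).

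**Figure D2:**
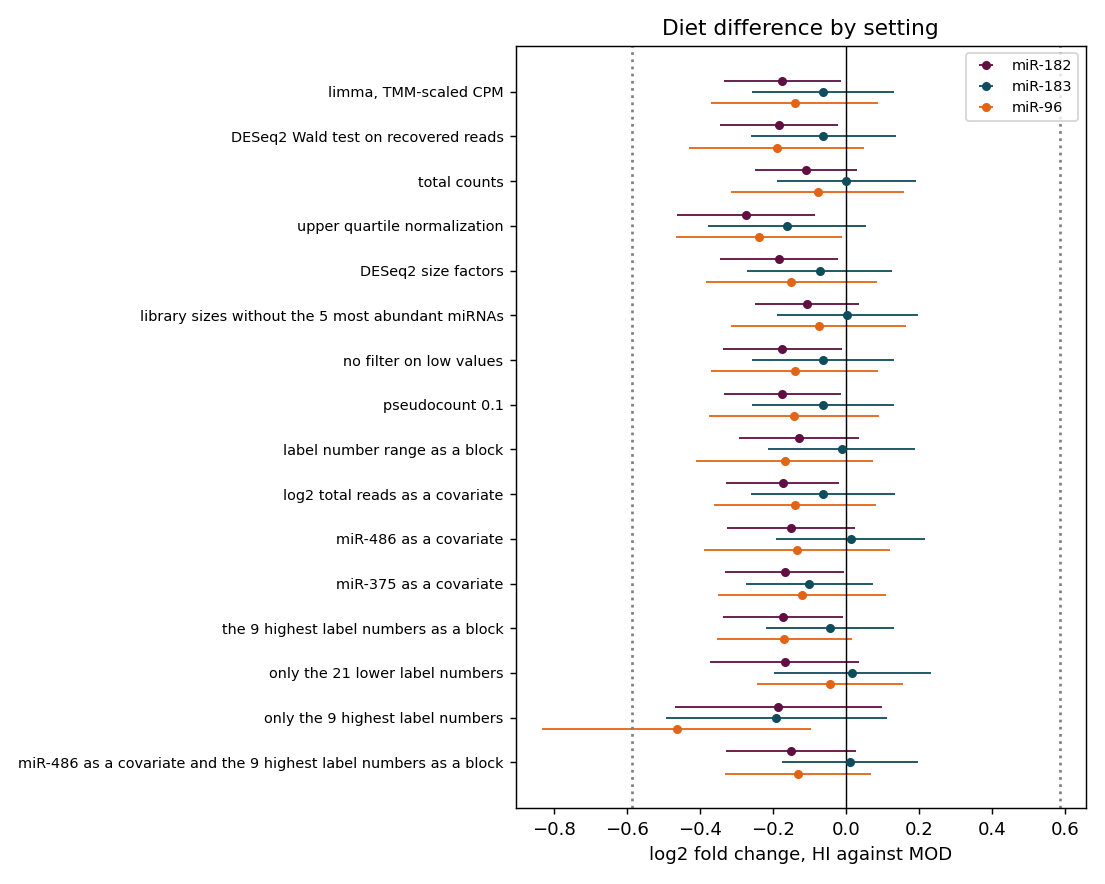
The log2 fold change of HI against MOD calves is plotted for the 3 miRNAs under each setting that gives a standard error, as a point with its 95% interval, and the dotted lines mark a fold change of 1.5. Points of miR-182 lie between -0.27 and -0.11 and those of miR-96 below 0 under every setting shown, whereas those of miR-183 lie on both sides of 0.

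Markers of other cells were set beside the members, since in bulk tissue fewer cells of a type and less RNA per cell cannot be told apart. Of the 2 pituitary endocrine miRNAs, the 5 of the epithelial miR-200 family, the 5 neural ones tested of 7, the 3 of red blood cells, the 5 of white blood cells, the 5 stromal, the 2 endothelial and the 3 of striated muscle tested of 5, none passed FDR < 0.1 between diets in limma. On the recovered reads, a comparison added once the values had been seen, both edgeR's quasi-likelihood test and DESeq2 called 3 of these higher in HI calves, namely miR-451 and miR-144 of red blood cells and miR-208b of striated muscle. Over all 419 miRNAs tested, edgeR called 20 and DESeq2 called 24, in either direction. Of the 3 miRNAs on the stratified epithelium list 2 were tested and 1, miR-205, was lower in HI calves (log2 fold change -0.67, FDR = 0.0424). The median log2 fold change was -0.10 for the endocrine list and -0.00489 for the miR-200 family, against 0.02 over all 419 miRNAs. The summed level of the endocrine list ran from 119220 to 212047 CPM in HI and from 134487 to 209427 CPM in MOD calves, so the diets overlapped.

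Red blood cells, in which miR-182, miR-183 and miR-96 are also known to be present, did not give 1 direction. Of the 3 markers miR-451 had a log2 fold change of 0.55 (FDR = 0.190) and miR-144 one of 0.46 (FDR = 0.115), while miR-486 had one of -0.27 (FDR = 0.274, all from limma). From edgeR's quasi-likelihood test the log2 fold changes were 0.66 for miR-451 (FDR = 0.0904), 0.68 for miR-144 (FDR = 0.0515) and -0.23 for miR-486 (FDR = 0.352), so the first pair was higher in HI calves by that test. The summed level of the 3 ran from 10578 to 24489 CPM in HI and from 15557 to 27422 CPM in MOD calves. With miR-486 as a covariate the log2 fold change of miR-182 was -0.15 (limma, FDR = 0.651), and with miR-375 as a covariate it was -0.17 (limma, FDR = 0.316). The part of red blood cell RNA in the levels of the 3 miRNAs was not tested further.

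The second comparison asked whether the balance within the cluster differed with diet, by the ratio of reads within a library, which does not depend on the scaling between libraries. The reads of miR-182 per read of miR-183 were 11.8 ± 2.30 in HI and 12.6 ± 1.53 in MOD calves, those of miR-183 per read of miR-96 were 33.7 ± 7.10 and 32.2 ± 7.68, and those of miR-182 per read of miR-96 were 387 ± 66.7 and 402 ± 93.7 (SD, n = 15 each). None of the 3 log2 ratios differed between diets beyond the spread between calves. The differences of HI from MOD were -0.11 for miR-182 to miR-183, -0.08 for miR-96 to miR-183 and 0.03 for miR-96 to miR-182, with two-sided permutation p of 0.204, 0.545 and 0.778, or 0.613, 0.778 and 0.778 after adjustment over the 3. Among the 9 libraries alone, which were added as a setting once the values had been seen, the ratio of miR-96 to miR-183 was higher in all 4 MOD calves than in any HI calf, with a log2 difference of HI from MOD of -0.28 (exact permutation test, p = 0.0159, the smallest that 5 against 4 calves can give, and 0.0476 after adjustment over the 3 ratios). Among the 21 libraries that difference was -0.06 (exact permutation test, p = 0.299), and whether these 2 differences differ was not tested. How many ratios of other miRNAs also separate the diets within the 9 libraries was not counted, so this separation has no background share beside it.

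**Figure D3:**
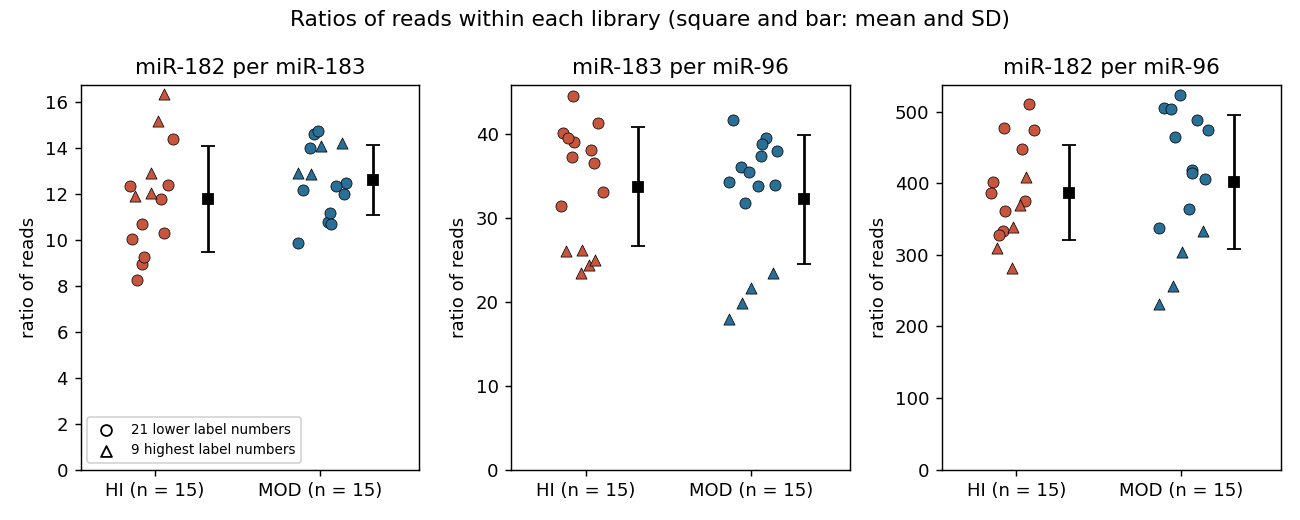
The ratio of reads between members is plotted for each calf by diet, on linear axes from 0, with triangles for the 9 highest label numbers, circles for the other 21, and a square with a bar for the mean and SD. HI and MOD overlap in all 3 panels, and in the middle panel the triangles, at 17.9 to 26.2 reads of miR-183 per read of miR-96, all lie below the circles, at 31.3 to 44.5.

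The balance between miR-183 and miR-96 separated the 2 sets of libraries without overlap. There were 17.9 to 26.2 reads of miR-183 per read of miR-96 in the 9 libraries and 31.3 to 44.5 in the 21, with means of 23.1 ± 2.80 (SD, n = 9) and 37.2 ± 3.41 (SD, n = 21). The levels of the members themselves differed in opposite directions. The level of miR-96 ran from 59.0 to 123 CPM in the 9 libraries with a median of 79.8 CPM, and from 47.3 to 85.3 CPM in the 21 with a median of 59.2 CPM. That of miR-183 ran from 1475 to 2444 CPM with a median of 1849 CPM in the 9, and from 1617 to 2996 CPM with a median of 2370 CPM in the 21. Each of these levels overlapped between the sets, whereas their ratio did not.

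With diet in the model the level in the 9 libraries exceeded that in the 21 by 0.42 on the log2 scale for miR-96, was lower by an estimate of -0.27 for miR-183, and was all but equal for miR-182 at -0.02. By this difference miR-96 ranked 21 from the top of the 419 miRNAs and miR-183 ranked 384. As the sets were drawn from values of these libraries, the differences are given as a description with no test. Over all tested miRNAs, 5 of 419, or 1.19%, had levels that did not overlap between the sets. Of the ratios of other miRNAs to miR-96, 8 of 417 (1.92%) did not overlap, and miR-183 was 1 of the 8. Of the ratios to miR-183, 6 of 417 (1.44%) did not overlap, and miR-96 was 1 of the 6. For miR-182 the ratios to both members overlapped between the sets, at 232 to 409 against 327 to 523 reads of miR-182 per read of miR-96.

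The third comparison asked how far the 3 miRNAs varied together between calves. Over all 30 calves miR-182 and miR-183 varied together, and within each set of libraries r was highest for miR-183 and miR-96. Spearman's rho put miR-182 and miR-96 first within the 9 libraries (0.87 against 0.82), and the pairs were not tested against each other. For miR-182 and miR-183 Pearson's r of log2(CPM + 1) was 0.56 (permutation p = 0.00149, adjusted over 3 pairs 0.00447) and Spearman's rho was 0.54 (permutation p = 0.00263, adjusted 0.00789). Without the 2 calves farthest from the median of miR-182, r was 0.50. In the 21 and in the 9 libraries taken alone r was 0.55 and 0.76. Without the 2 calves of each set farthest from its median of miR-182 these were 0.41 and 0.48. The 3 miRNAs of a calf come from the same library and share its scaling. On total counts r for this pair was 0.48.

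For miR-183 and miR-96 the pooled r was 0.29 (permutation p = 0.116) and rho was 0.30 (permutation p = 0.110), and neither passed. Within the 21 libraries r was 0.84 and rho was 0.83 (permutation p = 1e-05, the smallest that 100000 resamples can give, and 2e-05). After adjustment over the 3 pairs these p were 3e-05 and 6e-05. Within the 9 libraries r was 0.88 (exact permutation test, p = 0.00174) and rho was 0.82 (exact permutation test, p = 0.0108). Without the 2 calves farthest from the median of miR-183 the r were 0.81 and 0.69. The 2 sets lay as separate bands, whose slopes were not compared, and the pooled value mixes them. The boundary was drawn from miR-99b of these libraries, whose r with miR-96 was 0.74 after each diet's mean was subtracted. The p within the sets do not allow for that choice, so r within them is given as a description.

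**Figure D4:**
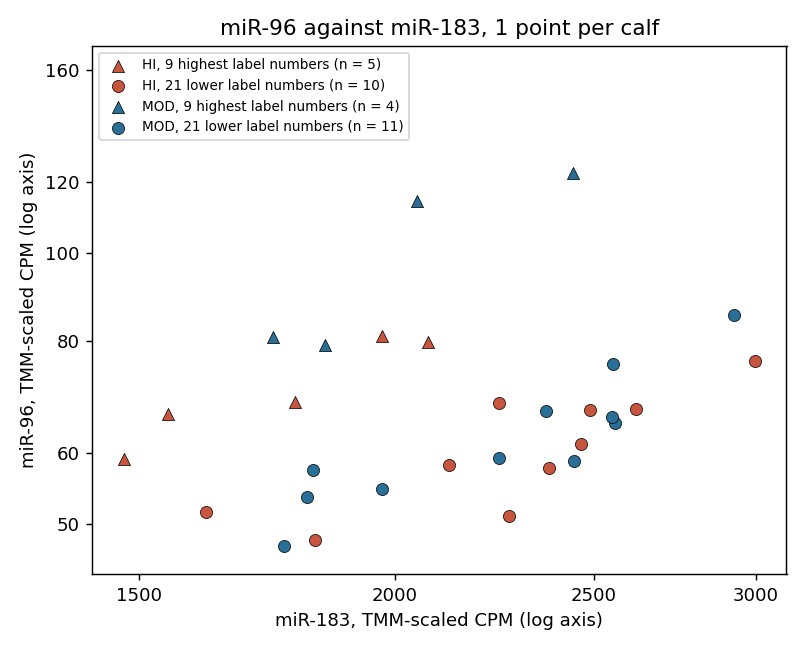
The level of miR-96 is plotted against that of miR-183 for each of the 30 calves, both in TMM-scaled CPM on log axes, coloured by diet, with triangles for the 9 highest label numbers and circles for the other 21. The triangles form a band above the circles, and miR-96 rises with miR-183 within each band (r of 0.88 and 0.84).

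For miR-182 and miR-96 r was 0.43 (permutation p = 0.0186, adjusted 0.0279) and rho was 0.41 (permutation p = 0.0239, adjusted 0.0358). After each diet's mean was subtracted r was 0.38 and no longer passed after adjustment (permutation p = 0.0389, adjusted 0.0584). It was 0.57 among the 21 libraries and 0.68 among the 9, and 0.46 in both without the 2 farthest calves of each set. Without the 2 calves farthest from the median of miR-182 it was 0.49 over all calves, but 0.19 after the diet means were subtracted. Within MOD calves alone the same step took r from 0.39 to -0.02, so there the relation rests on those calves.

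Among the 418 other miRNAs tested, those whose pattern over the 30 calves was most like that of each member were found by r of log2(CPM + 1) after each diet's mean was subtracted, as a description with no test. For miR-182 they were miR-148a (r = 0.59), miR-183 (0.56), miR-7180 (0.54) and miR-186 (0.50), and miR-96 came 23rd with r = 0.38. For miR-183 they were miR-200c (0.75), a member of the epithelial miR-200 family, miR-23a (0.69) and miR-6123 (0.64), and miR-182 came 11th. For miR-96 they were miR-1271 (0.77), miR-99b (0.74) and miR-100 (0.73). As the boundary between the 9 and the 21 libraries was drawn from miR-99b, the last list also carries that boundary. With the means of the 9 and of the 21 libraries subtracted as well, the miRNA most like miR-96 was miR-183 (r = 0.84), which without that step had ranked 54, and the miRNA most like miR-183 was in turn miR-96. By the mean of r with the 3 members the nearest were miR-152 (0.39), miR-16a (0.39), miR-148a (0.37), miR-200c (0.37) and miR-191 (0.36).

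The miRNA most like miR-96, miR-1271, belongs to the same seed family, which means that both are expected to recognise the same target sites. It was measured at 38.9 ± 8.38 CPM under HI and 38.1 ± 10.6 CPM under MOD (SD, n = 15 per diet), and limma gave it a log2 fold change of 0.05 with FDR = 0.935. There were more reads of miR-96 than of miR-1271 in 30 of the 30 libraries, with 1.79 ± 0.287 reads of miR-96 per read of miR-1271 (SD, n = 30). Like miR-96 it was at a higher level in the 9 libraries, at 37.0 to 62.7 CPM against 26.8 to 39.3 CPM in the 21. The correlation of miR-96 with miR-1271 therefore spans the same boundary, and with the means of the sets subtracted r was 0.59.

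Relations of the 3 members with 5 markers of endocrine, epithelial and red blood cells were computed over the 30 calves, 15 relations in all. After adjustment over the 15, 1 relation passed, that of miR-96 with miR-7, an islet and pituitary miRNA. Its r was 0.71 (permutation p = 1e-05, adjusted 0.00015) and its rho was 0.62 (permutation p = 0.00023, adjusted 0.00345), and without the 2 calves farthest from the median of miR-96 r was 0.55. Within the 21 libraries r was 0.49 (permutation p = 0.0218, adjusted 0.128) and fell to 0.11 without the 2 farthest calves, so there the relation rests on those calves. Within the 9 libraries r was 0.84 (exact permutation test, p = 0.00603, adjusted 0.0904) and rho was 0.68 (exact permutation test, p = 0.0503, adjusted 0.333). Without the 2 farthest calves of the 9, r was 0.67 and rho was 0.36. Like miR-96, miR-7 had a higher mean in the 9 libraries, at 19198 ± 4380 CPM (SD, n = 9) against 16149 ± 2844 CPM in the 21 (SD, n = 21). The r over all calves therefore spans that boundary, and the part of the sets in it was not tested. In 24 of the 30 libraries the recovered reads of miR-7 were not whole, unlike those of the members, and any effect on its level was not tested.

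The miRNA with the highest level, miR-375, had a negative r with miR-183. Its r with miR-183 was -0.47 (permutation p = 0.00856, adjusted 0.0570) and rho was -0.49 (permutation p = 0.00696, adjusted 0.0522), which did not pass after adjustment, and r was -0.41 without the 2 calves farthest from the median of miR-183. On total counts r was -0.59 (permutation p = 0.00044, adjusted 0.00330). The level of miR-375 also differed between the sets of libraries, with a mean of 172162 ± 17272 CPM in the 9 libraries (SD, n = 9) and 134868 ± 18447 CPM in the 21 (SD, n = 21). Among the 21 libraries r was -0.26, and -0.61 without the 2 farthest calves. Among the 9 it was -0.11, and 0.56 without the 2 farthest calves, so r within the sets turned on single calves. The part of the sets in the relation was not tested. The relation of miR-182 with miR-451 (r = -0.43, permutation p = 0.0174, adjusted 0.0654, rho = -0.39, permutation p = 0.0339, adjusted 0.169) did not pass either. Without the 2 calves farthest from the median of miR-182 its r was -0.39. Nor did that of miR-183 with miR-200b of the epithelial miR-200 family (r = 0.46, permutation p = 0.0114, adjusted 0.0570, rho = 0.35, permutation p = 0.0633, adjusted 0.237), and without the 2 calves farthest from the median of miR-183 its r was 0.33.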

How the data were processed

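Adapter trimming by the authors used Cutadapt, reads of other short RNAs were discarded, and miRDeep2 quantified the known mature miRNAs on the ARS-UCD1.2 genome. Their deposited signal is CPM scaled by TMM factors, not raw counts. The step between low values gave whole reads back, with at least 94.8% of the low values in a library within 0.01 of a whole number. The design assumed these CPM, so limma 3.58.1 in R 4.3.3 (eBayes with an intensity trend) was run on log2(CPM + 1), for the 419 miRNAs left by filterByExpr of edgeR. Both thresholds follow the study's methods. The quasi-likelihood test of edgeR 4.0.16 and DESeq2 1.42.0 were run on recovered reads, rounded to whole numbers. Adjustment was Benjamini-Hochberg. Permutation tests were two-sided with 100000 resamples, and exact where a group was under 10 calves and within the 21 and the 9 libraries for comparisons of diets. Scripts were tested on simulated data.

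Named miRNAs are the 3 members, those of 9 marker lists where discussed, the 3 most like each member, the 5 most like all 3, and neighbours by mean CPM. The rule also named miRNAs sharing a seed, but sequences were not used here, and miR-1271 was named from its known family. The members, lists and tests were chosen with earlier results of these data known. Calves were blocked on age, weight, sire and farm before they were assigned to diets, per the study's methods, but the labels do not give these blocks, so they could not be fitted. Calves are numbered here in accession order, which pairs none. Levels of different miRNAs depend also on how well each is captured in a library, which was not measured. The RefSeq table of ARS-UCD2.0, another build, was used for names and neighbours only.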

Additional observations from a re-analysis of the deposited data

How the results depend on the processing

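Differences are HI minus MOD. No paired analysis was possible because HI and MOD calves carry no common number in the labels, which leave out the blocks of the trial. With the range of label numbers, taken without their first digit, as a block instead, miR-182 had a log2 fold change of -0.13 (limma, p = 0.119, FDR = 0.781). In that fit miR-183 had one of -0.01 and miR-96 one of -0.17. Beside limma on TMM-scaled CPM, 17 other settings and 30 fits that each left out 1 calf were run, of which 2 settings, both blocked on the 9 against the 21 libraries, were chosen after seeing the data. For miR-182 the log2 fold change stayed negative in all 17, from -0.27 to -0.11. It passed FDR < 0.1 in 1 of them, upper quartile normalization (limma, -0.27, FDR = 0.0853). The number of members called rose from 0 to 1 there, while that over all 419 miRNAs rose from 15 to 29, and the cause was not tested. For miR-96 the log2 fold change stayed negative in all 17, from -0.46 to -0.04. For miR-183 the sign turned on total counts (0.00074), after the 5 most abundant miRNAs were left out of library sizes (0.00377), with miR-486 as a covariate (0.0133), within the 21 libraries (0.0176), and with miR-486 and the set of 9 libraries together (0.0110), none past the threshold. Leaving out 1 calf gave -0.21 to -0.15 for miR-182, -0.10 to -0.03 for miR-183 and -0.18 to -0.08 for miR-96, and none of the 3 passed FDR < 0.1 in these fits.

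The ratio tests kept their direction within the 21 libraries and with CPM + 1 in place of reads. Within the 9, chosen after seeing the data, the log2 difference was 0.00570 for miR-182 to miR-183 and -0.28 for miR-96 to miR-182. Both were opposite in sign to the value over all calves. For miR-96 to miR-183 it was -0.28 (exact permutation test, adjusted p = 0.0476), with no background share over other ratios. The ratios of the 3 members to miR-375, miR-7 and miR-141 gave 9 further comparisons of diets, also chosen after seeing the data, of which the lowest permutation p was 0.0669 and the lowest adjusted p was 0.602. For miR-182 and miR-183 r was 0.43 within HI calves and did not pass (0.72 within MOD). For miR-182 and miR-96 it did not pass after each diet's mean was subtracted (0.38), within HI (0.38) or within MOD calves (0.39). For miR-183 and miR-96 r was 0.84 within the 21 and 0.88 within the 9 libraries. Both are given as a description, because these sets were drawn from values of the same libraries. Of the 15 relations with markers 1 passed, against 2 on total counts, 0 within the 21 and 0 within the 9 libraries (fewer calves). Counting error limits miR-96 most, with 363 reads in the lowest library.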
